A study of Mus musculus with 2 samples.

Results

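The Runx, Sp7 and Mef2 transcription factors that drive cartilage maturation were examined in cells sorted from mouse embryos, as 8 genes: Runx1, Runx2, Runx3, Cbfb, Sp7, Mef2a, Mef2c and Mef2d. Members were all probe sets (groups of short probes that read 1 transcript) annotated with exactly 1 of these symbols. This gave 24 probe sets for 7 of the 8 genes, out of 34945 probe sets for 18193 genes. The annotation used paired no probe set with Runx2, so Runx2 expression was not analysed here. The embryos were Col2a1-Venus transgenic mice of genetic background C57Bl/6, in which chondrocytes, the cells of cartilage, carry Venus, a modified green fluorescent protein. Both groups came from this line, were separated by fluorescence-activated sorting and differ in the sorted label: Venus-positive cells (1 array) and Venus-negative cells (1 array). The sources used here give no embryo stage, number of embryos, sorting gates, treatment or further allele. The Venus-negative group is therefore a mixture of other embryonic cells of unstated makeup, and the comparison asks which genes distinguish the labelled cells from it.

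Runx proteins bind DNA through a shared Runt domain, and Cbfb is the non-DNA-binding partner that stabilises that binding. In the growth plate, Runx2 and Runx3 promote the passage of chondrocytes from proliferation to hypertrophy, and Runx1 is known both from early skeletal mesenchyme and from the formation of blood cells. Sp7 (osterix) is a zinc finger factor that acts after Runx2 in osteoblast formation and late chondrocyte maturation. Mef2 factors are MADS box proteins held in check by class IIa histone deacetylases. Mef2c is known to be required for chondrocyte hypertrophy, and the Mef2 family is best known from muscle.

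The promoters of the Runx genes share a short sequence, shown here because it is the Runx binding motif itself and ties the family together. RefSeq promoter windows (GRCm38.p6, 250 bases before to 50 after a transcription start) were found for 7 of the 8 genes, 11 windows in all. The Runx motif AACCACA was searched on both strands, and was present in 5.27% of all 32851 windows. The longest run shared by a window of each Runx gene was the 18 bases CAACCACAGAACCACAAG, which hold that motif 2 times, and it occurred in 4 windows, on either strand. These were 1 each of Runx1, Runx2 and Runx3, and that of Gm16225, which overlaps the Runx3 window on the opposite strand and holds the same copy. The 30 bases around it are given from 5′ to 3′ on the strand of the gene, with the run in capitals.
Runx1: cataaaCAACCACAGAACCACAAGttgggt
Runx2: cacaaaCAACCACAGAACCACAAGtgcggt
Runx3: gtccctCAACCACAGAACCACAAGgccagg
The Runx1 stretch is at chr16:92826025-92826054 on the minus strand, and its run lies 27 to 44 bases into the transcript that starts there, counting the start as 1. The Runx2 stretch is at chr17:44814583-44814612 on the minus strand, with the run 22 to 39 bases into the transcript. The Runx3 stretch is at chr4:135120503-135120532 on the plus strand, with the run upstream, from position -136 to -119 relative to the start. The second window of Runx1 and that of Runx3 held no copy of AACCACA.

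For Mef2 a loose pattern was searched, CTA and TAG set 4 bases apart with any bases between, which reads the same on both strands. It occurred in 3.69% of all windows, a share of this pattern and not of Mef2 sites. Mef2 sites with other outer letters were not searched for. Among the members the pattern was present in the window of Mef2a alone, at positions -2 to 8 around the start, shown with the match in capitals.
Mef2a: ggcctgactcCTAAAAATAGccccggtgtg
This stretch is at chr7:67372841-67372870 on the minus strand. None of the 3 windows of Mef2c held this pattern, the Runx motif or the GC box GGGGCGG, a sequence bound by the Sp family and present in 23.2% of all windows. The arrays measured transcripts and not binding, so these matches describe the sequence only.

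The values are MAS5 signals, linear intensities with 1 value per probe set and array. Each group had 1 array, so no value has a replicate error, no test between the groups was possible, and each difference describes these 2 arrays. A floor of 22.5, the median of all non-control signals, stood in for detection calls. Signals below it were set to it before taking log2 ratios, which are those of Venus-positive over Venus-negative cells, and a fold with 1 side below it is written "at least". A gene was represented by its brightest probe set, by mean log2 signal. The Venus-positive array was dimmer: its median was 19.0 against 26.5, and the median log2 ratio of the 11789 measured genes was -0.33. Relative log2 ratios below have that median subtracted. The sort was checked by Col2a1, at 606 in Venus-negative and 8443 in Venus-positive cells, 13.9-fold higher. The disagreement between probe sets of 1 gene, pooled over 5445 genes, was 0.34 (SD, log2) and holds no error between samples.

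On the deposited scale Runx3 and Sp7 passed the 2-fold size as higher in Venus-positive cells, and 0 of the 7 measured genes passed it as lower. For all measured genes these shares were 2.79% higher and 11.6% lower. After subtraction of the median, Runx1 and Mef2c passed it as well, which made 4 of 7 higher (5.06% of all genes) and 0 lower (6.45%). Cbfb, Mef2a and Mef2d were within 2-fold on both scales. Of the 24 probe sets, 22 reached the floor on at least 1 array, 16 of them on both. On the deposited scale 4 of the 22 passed 2-fold as higher (2.44% of all measured probe sets did) and 0 as lower (10.2%). Relative to the median gene 9 passed as higher (4.63%) and 0 as lower (5.32%). The median log2 ratio of the 22 was 0.40, and that of all 21102 measured probe sets was -0.33. Of the 22, 6 had 1 array below the floor, as had 3016 of the 21102. All but 1 of these 6, a dim Mef2a probe set, reached the floor only in Venus-positive cells. They include the only Sp7 probe set, and they could not pass 2-fold as lower. The floor fixed the direction of these 6, so only the 16 that reached it on both arrays could go either way. Probe sets of 1 gene read the same RNA and are not independent.

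**Figure D1:**
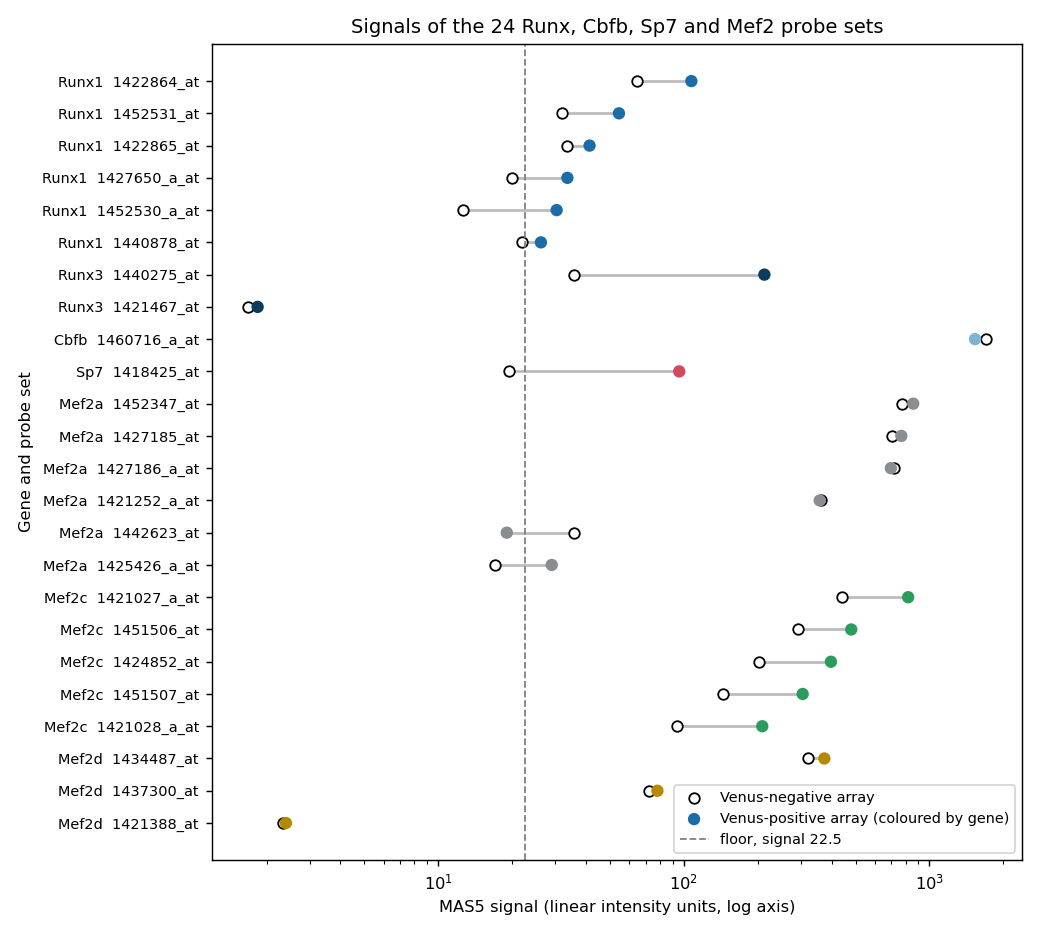
MAS5 signal of each of the 24 probe sets (rows, grouped by gene) on a log axis. Open circles are the Venus-negative and filled circles the Venus-positive array, 1 array each, and the dashed line is the floor of 22.5. Runx3 1440275_at and Sp7 have the widest gaps, all 5 Mef2c and all 6 Runx1 rows lie to the right on the Venus-positive array, and 1421467_at of Runx3 and 1421388_at of Mef2d lie below the floor on both arrays.

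Runx3 was the member with the largest difference. Its probe set 1440275_at had a signal of 35.7 in Venus-negative and 213 in Venus-positive cells, 5.96-fold higher, with a log2 ratio of 2.58 and a relative ratio of 2.91. Both signals were above the floor, the Venus-negative one by a small margin. This log2 ratio was the 65th highest of the 18086 probe sets that reached the floor on both arrays. Among 4133 measured probe sets within 0.5 of its mean log2 signal, 2.54% were at least 2-fold higher and 0.726% had a ratio as high. The other Runx3 probe set, 1421467_at, was at 1.69 and 1.84, below the floor on both arrays. The higher level of Runx3 therefore rests on 1 probe set, and the other one gave no measurement of it.

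Runx1 was higher on the Venus-positive array at all 6 of its probe sets, by less than 2-fold at each one once the floor was set. The brightest, 1422864_at, was at 64.4 in Venus-negative and 107 in Venus-positive cells, 1.67-fold higher (log2 ratio 0.74, relative 1.07). Probe set 1452531_at was at 31.9 and 54.4, 1.71-fold higher. Probe set 1422865_at was at 33.3 and 41.3, 1.24-fold higher. The last 2 were near the floor in Venus-negative cells, and only these 3 Runx1 probe sets reached it on both arrays.

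The other 3 Runx1 probe sets were below the floor in Venus-negative cells. They were at 20.0 against 33.6 (1427650_a_at, at least 1.49-fold higher), 12.6 against 30.3 (1452530_a_at, at least 1.35-fold) and 21.9 against 26.2 (1440878_at, at least 1.16-fold). Over the 6 probe sets the log2 ratios ran from 0.22 to 0.77 (SD between probe sets 0.23), and 2 of them passed 2-fold on the relative scale. A log2 ratio above 0 was seen for 22.7% of all measured probe sets. That share is no yardstick for the 3 probe sets of this paragraph. They count as measured only through their Venus-positive signal, so once the floor was set their log2 ratio had to exceed 0. The share bears only on the 3 Runx1 probe sets that reached the floor on both arrays. Of the probe sets about as bright as 1422864_at, 3.97% had a ratio at least as high as its own.

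Runx1 is also a gene of blood-forming and immune cells, so markers of those cells were set beside it. Of 15 measured genes of the blood progenitor and leukocyte list, 13 passed 2-fold as lower (12 relative to the median gene) and 0 as higher. The median log2 ratio of the list was -2.37. Of the 15 genes, 6 were below the floor in Venus-positive cells, so once the floor was set they could not come out higher. Among all measured genes 11.6% passed 2-fold as lower, or 6.45% relative to the median gene. Ptprc, the pan-leukocyte surface phosphatase CD45, was at 116 in Venus-negative cells and at 10.2, below the floor, in Venus-positive cells, at least 5.15-fold lower. Csf1r, the macrophage growth factor receptor, was at 758 and 48.0, 15.8-fold lower, though its 3 measured probe sets had log2 ratios from -3.98 to -1.67. The signalling adaptors Tyrobp and Fcer1g were below the floor in Venus-positive cells. Lmo2, a regulator of blood progenitors, was 7.29-fold lower. The summed signal of the list's 15 genes was 2830 in Venus-negative and 503 in Venus-positive cells. What blood cells add to the Runx1 signal on either array was not tested. In bulk samples such as these, fewer cells of a type and less RNA per cell cannot be told apart.

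In the erythroid and megakaryocyte list 5 of 8 measured genes passed 2-fold as lower on both scales and 0 as higher. The shares over all genes were 11.6% lower in the deposited values and 6.45% relative to the median gene. The median log2 ratio of the list was -2.01, and Slc4a1, the red cell anion exchanger, was at 867 against 49.2. Gata1, the main factor of these lineages, was at 40.4 in Venus-negative cells and at 9.45, below the floor, in Venus-positive cells. Sensory neurons also use Runx1 and Runx3. In the list of neuron genes 6 of 9 measured members passed 2-fold as lower (4 relative to the median gene) and 0 as higher. The median was -1.19, and the neurofilament gene Nefl was at 223 against 41.7. Among epithelial genes 7 of 8 passed 2-fold as lower (6 relative to the median gene) and 0 as higher. Their median was -2.29, with Cdh1 (E-cadherin) at 238 against 27.9. Genes below the floor in Venus-positive cells could not come out higher. They were 3 of the 8 erythroid and megakaryocyte, 3 of the 9 neuron and 2 of the 8 epithelial genes.

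Cbfb, the partner subunit that every Runx protein uses, was nearly level. Its only probe set, 1460716_a_at, was at 1692 in Venus-negative and 1533 in Venus-positive cells. The log2 ratio was -0.14 as deposited and 0.19 relative to the median gene, so the sign depends on how the arrays are scaled. It was bright on both arrays, and among 732 measured probe sets of like brightness 2.87% passed 2-fold as higher and 4.51% as lower. Runx1 and Runx3 thus had log2 ratios above 0 on both scales, while the sign for their shared partner changed with the scale. By the 2-fold size, Runx1, at 1.67-fold on the deposited scale, was within it there, as Cbfb was on both scales.

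Sp7 had 1 probe set, 1418425_at, at 19.5 in Venus-negative cells, just below the floor, and at 95.7 in Venus-positive cells. It was at least 4.25-fold higher, with a log2 ratio of 2.09 and a relative ratio of 2.42. The ratio of the 2 signals without a floor was 4.91. Among 4105 measured probe sets of like brightness, 3.53% were at least 2-fold higher. The place of Sp7 among them is not informative. With 1 signal set to the floor, its ratio is the largest that its mean signal allows. The signal was dim on both arrays and no second probe set was annotated for the gene.

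Sp7 is also an osteoblast gene, and the osteoblast list, of which Sp7 is itself 1 of the 7 measured genes, went both ways. In it 3 genes passed 2-fold as higher and 1 as lower, or 4 and 1 relative to the median gene. The shares over all genes were 2.79% and 11.6%, or 5.06% and 6.45% relative. The median log2 ratio of the list was 0.78. Ifitm5, an osteoblast membrane protein, was at 28.0 in Venus-negative and 121 in Venus-positive cells, 4.33-fold higher, and Ibsp (bone sialoprotein) was at 120 and 361, 3.02-fold higher. The collagen genes of the list, which are not particular to osteoblasts, were lower on the deposited scale. Col1a1 was at 1900 and 1189 and Col1a2 at 7892 and 5845, with relative log2 ratios of -0.34 and -0.10. The 3 measured Col1a2 probe sets had deposited log2 ratios from -1.91 to -0.43, and the value given is the highest. Phex, a peptidase gene of bone cells, was at 145 and at 17.7, below the floor, at least 6.45-fold lower. Whether osteoblasts in the Venus-positive fraction contribute to the Sp7 signal was not tested.

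Mef2c was higher in Venus-positive cells at all 5 of its probe sets, each of which was above the floor on both arrays. Probe set 1421027_a_at was at 440 in Venus-negative and 819 in Venus-positive cells, 1.86-fold higher (log2 ratio 0.90, relative 1.23). Probe set 1451506_at was at 291 and 480, 1.65-fold higher. Probe set 1424852_at was at 201 and 397, 1.97-fold higher. These 3 were the brightest and stayed just short of 2-fold.

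The dimmer Mef2c probe sets passed it: 1451507_at was at 144 and 305, 2.11-fold higher. Probe set 1421028_a_at was at 93.5 and 209, 2.23-fold higher. Over the 5 the log2 ratio ran from 0.72 to 1.16, with an SD between probe sets of 0.17, and all 5 passed 2-fold on the relative scale (1.05 to 1.49). Each was higher than at least 96.1% of the probe sets that reached the floor on both arrays. Of the measured probe sets as bright as each of them, between 1.82% and 4.38% had a ratio as high. Mef2c is the member whose difference rests on the most probe sets above the floor.

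**Figure D2:**
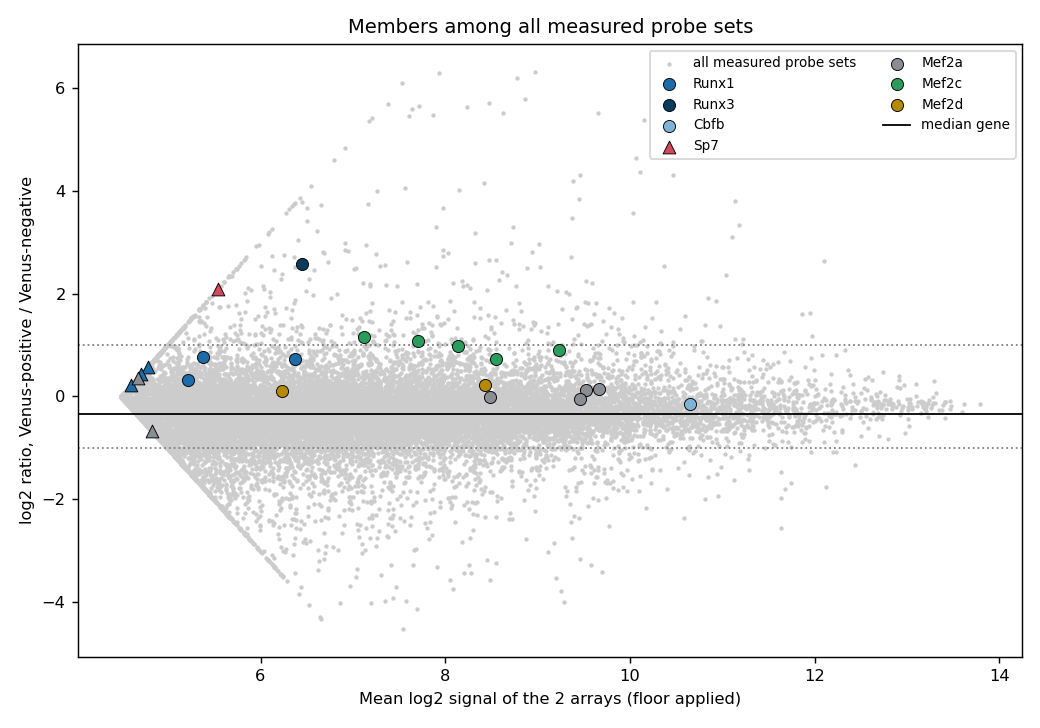
Log2 ratio, Venus-positive over Venus-negative, (vertical) against the mean log2 signal of both arrays (horizontal) for all 21102 measured probe sets (grey) and the 22 measured member probe sets (coloured by gene). Triangles have 1 array below the floor, the solid line is the median gene at -0.33 and the dotted lines are 2-fold. The Mef2c points lie together between 0.72 and 1.16, while the Mef2a and Cbfb points above a mean log2 signal of 8 lie between -0.14 and 0.15.

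The related genes Mef2a and Mef2d were closer to level. Mef2a had 4 bright probe sets. They were at 774 and 859 (1452347_at), 702 and 768 (1427185_at), 717 and 696 (1427186_a_at) and 362 and 357 (1421252_a_at) in Venus-negative and Venus-positive cells, with log2 ratios between -0.04 and 0.15. The 2 dim probe sets pointed opposite ways, 1442623_at at 35.7 and 19.0 and 1425426_a_at at 17.1 and 29.0, each with 1 side below the floor. The brightest Mef2a probe set had a log2 ratio of 0.15, and the mean over all 6 was -0.01, so Mef2a has no settled direction on the deposited scale, and 5 of its 6 probe sets lay above the median gene.

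Mef2d was at 321 and 373 (1434487_at) and at 72.4 and 78.0 (1437300_at), with log2 ratios of 0.22 and 0.11 and relative ratios of 0.55 and 0.44. Its remaining probe set, 1421388_at, was at 2.33 and 2.40, below the floor on both arrays. Among probe sets above the floor on both arrays, the lowest Mef2c log2 ratio, 0.72, exceeded the highest of Mef2a, 0.15, and of Mef2d, 0.22. The dim Mef2a probe set 1425426_a_at, at least 0.36, was at 0.76 without a floor, which is above 0.72. With 1 array per group the difference between these genes could not be tested.

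Muscle and blood vessels express Mef2c too, so their markers were set beside it. Of 12 measured skeletal muscle genes 11 passed 2-fold as lower (9 relative to the median gene) and 0 as higher, with a median log2 ratio of -2.43. Myog (myogenin), which works with Mef2 factors in muscle, was at 645 and 40.9, 15.8-fold lower, and Myod1 was at 61.8 and, below the floor, 9.61. The summed signal of the muscle list was 4848 and 429. Of the 12 muscle genes, 7 were below the floor in Venus-positive cells, so once the floor was set they could not come out higher. Of 9 measured endothelial genes 7 passed 2-fold as lower on both scales and 0 as higher. Their median was -1.96, and Cdh5 (VE-cadherin) was at 137 and 28.1. The same limit holds for 4 of these 9 genes. The shares over all genes were 11.6% lower in the deposited values and 6.45% relative to the median gene. What muscle or vessel cells add to the Mef2c signal on either array was not tested.

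The partners and co-regulators of Runx proteins passed 2-fold only as lower in the deposited values, at a share near that of all genes. Relative to the median gene they passed it both ways, more often than all genes did, though on small counts. Of 36, 0 passed 2-fold as higher and 5 as lower in the deposited values, or 5 and 4 once the median gene was subtracted. The shares over all genes were 2.79% higher and 11.6% lower in the deposited values, and 5.06% and 6.45% after the subtraction. The 5 higher after the subtraction, named after their values were seen, were Cebpb, Dlx3, Dlx5, Hes1 and Trps1, with relative log2 ratios from 1.04 to 1.28. That of Dlx3 is at least 1.28, as its Venus-negative signal of 2.89 was below the floor, so its deposited ratio could not come out lower. The list's median log2 ratio was -0.47, beside -0.33 for all genes. Twist1 and Twist2, basic helix-loop-helix proteins that restrain Runx2, were at 883 and 266 and at 744 and 268, so 3.31-fold and 2.78-fold lower in Venus-positive cells. Cbfa2t3, a co-repressor known as a fusion partner of Runx1 in leukaemia, was at 84.1 and, below the floor, 19.6, at least 3.74-fold lower, though its probe sets ran from -1.90 to -0.75. Tle5, a short member of the Groucho family, was at 241 and 89.1, 2.71-fold lower, and the Groucho co-repressor genes Tle1 (458 and 305) and Tle2 (144 and 90.1) were within 2-fold. Twist1 is a marker of loose mesenchyme as well, and the perichondrium and fibroblast list includes it. In that list 9 of 12 genes passed 2-fold as lower (8 relative to the median gene) and 0 as higher. Its median was -1.43, with Dcn (decorin) at 2483 and 156. In this list 1 of the 12 genes was below the floor in Venus-positive cells and could not come out higher.

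Regulators of Mef2 activity passed 2-fold about as often as all genes. Of 18 measured, 0 passed 2-fold as higher and 2 as lower, or 1 and 1 relative to the median gene, beside the same shares of all genes, with a median log2 ratio of -0.25. Hdac4, the class IIa deacetylase known for holding back Mef2c in chondrocytes, was at 85.0 and 75.6, a relative log2 ratio of 0.16. Hdac7, a deacetylase of the same class that is abundant in endothelium, was at 148 and 47.7, 3.11-fold lower. The other gene past 2-fold as lower was the calmodulin-dependent kinase gene Camk2a, at 48.7 and, below the floor, 9.50, at least 2.17-fold lower. Sik1, a kinase of class IIa deacetylases, was at 60.4 and 32.0. Prkd1, a kinase that drives these deacetylases out of the nucleus, was at 200 and 396, 1.98-fold higher, with a relative log2 ratio of 1.32. Mef2b, the family member outside the 8 genes, did not reach the floor.

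Genes known to act downstream of Runx2, Sp7 or Mef2c in maturing cartilage and bone went both ways. Of 24 listed, 16 were measured, of which 6 passed 2-fold as higher and 3 as lower (7 and 2 relative to the median gene), beside 2.79% and 11.6% of all genes, with a median log2 ratio of 0.53. The list holds genes counted already as osteoblast genes and was chosen with earlier results known. Ihh, the hedgehog ligand of prehypertrophic chondrocytes, was at 16.3, below the floor, and 170.0, at least 7.56-fold higher. Panx3, a channel gene of maturing chondrocytes, was at 17.0 and 922, at least 40.97-fold higher, though its other measured probe set gave a log2 ratio of 0.59. Col10a1, the collagen of hypertrophic cartilage, was at 0.629 and 48.1, at least 2.14-fold higher, and so stayed dim. Ihh, Panx3 and Col10a1 were all below the floor in Venus-negative cells, so once the floor was set they could not come out lower. The 3 genes that passed 2-fold as lower, named after their values were seen, were Phex, Lifr and Fgf18. Phex was at least 6.45-fold lower, Lifr was at 336 and 129, 2.61-fold lower, and Fgf18 was at 192 and 85.8, 2.24-fold lower. All 10 genes of the list of Sox factors and cartilage matrix were at least 2-fold higher, with Sox9 at 338 and 1601 and Matn1 at 56.3 and 4478. Sox9, Runx3 and Sp7 were therefore all higher in the Venus-positive cells.

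**Figure D3:**
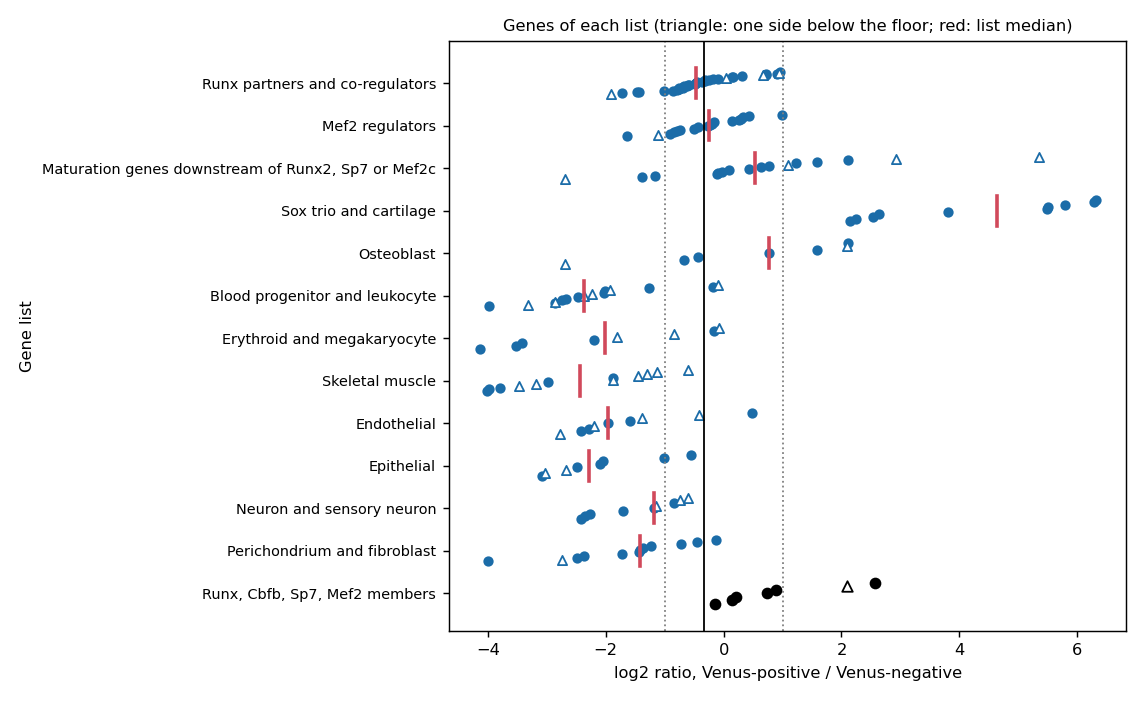
Log2 ratio, Venus-positive over Venus-negative, for each measured gene of 12 lists and, in the bottom row, of the 7 measured members. Open triangles have 1 array below the floor, red bars are list medians, the solid line is the median gene at -0.33 and the dotted lines are 2-fold. The members lie from -0.14 to 2.58, and the lists of blood, muscle, endothelial, epithelial, neuronal and fibroblast genes have medians from -2.43 to -1.19.

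Scaling mattered for the count and the floor for the dim members. Runx1, Runx3, Sp7, Mef2c and Mef2d kept a log2 ratio above 0 under all alternatives that gave them a value. Runx3 ranged from 0.90, with the floor raised to the 75th percentile of signals (114), to 2.95, with quantile normalization. Mef2c ranged from 0.87 to 1.23, Runx1 from 0.51 to 1.13 and Mef2d from 0.16 to 0.55. Sp7 ranged from 1.65 to 2.42 and was below the raised floor on both arrays, as was Runx1.

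**Figure D4:**
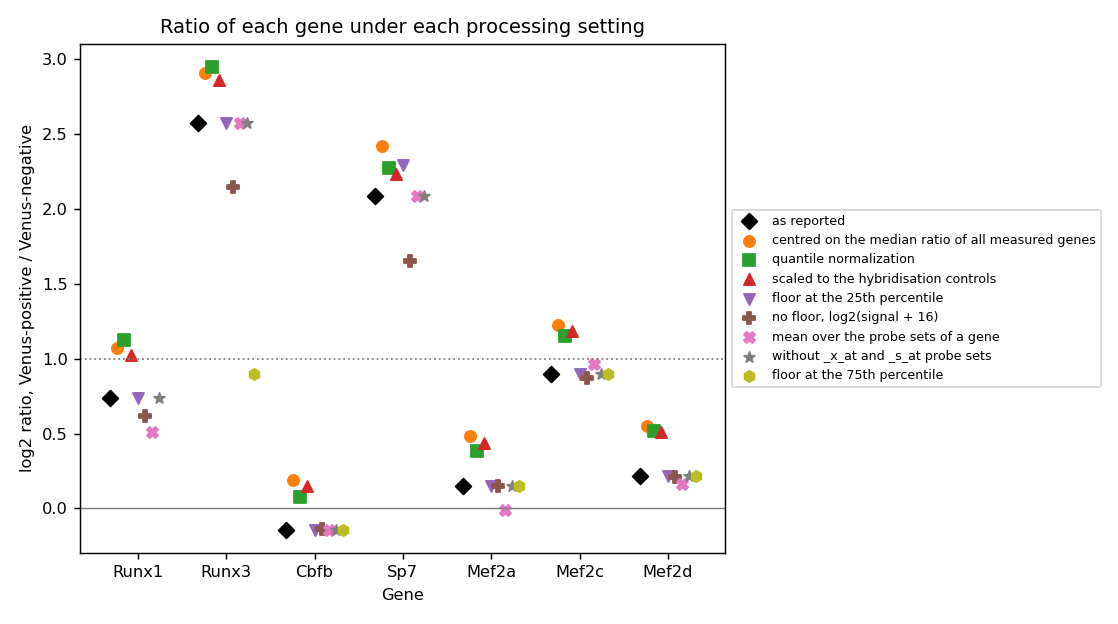
Log2 ratio, Venus-positive over Venus-negative, (vertical) of each measured gene (horizontal) as reported (black diamonds) and under 8 alternatives (coloured symbols), with the dotted line at 2-fold. Runx3 and Sp7 lie above it except for Runx3 at the raised floor (0.90), Runx1 and Mef2c cross it when the arrays are put on a shared scale, and Cbfb changes sign with scaling (-0.14 to 0.19).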

How the data were processed

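The authors deposited 1 intensity per probe set and array, a linear signal for which the submitters' processing notes name MAS5. The sources used here give no version, scaling target or detection calls. Symbols came from the platform annotation, and 34945 probe sets with 1 symbol were used. The 932 with several, the 9160 with none and the 64 control probe sets were set aside. Log2 ratios, gene summaries and counts past 2-fold were computed with Python 3.11.15 and pandas 2.3.3, on the floor, scale and rule described with the results. With 1 array per group the number of arrays limits the precision and no p-value was computed. The members, lists and alternatives were chosen with earlier results of these data known. Genes named from a list were taken from its first 2 and the 4 with the largest absolute log2 ratio, not all of which are printed; exceptions are marked. As a gene's pattern here is a single ratio, no genes of like pattern were sought. The procedure was tested on simulated data, with changes planted only in genes whose Venus-negative signal was well above the floor. That test therefore does not cover dim genes such as Runx1, Runx3 and Sp7. Promoter sequences are RefSeq's, build GRCm38.p6. The 8 alternatives changed the scale between arrays, the floor, the probe sets of a gene and the probe sets used.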

Additional observations from a re-analysis of the deposited data

How the results depend on the processing

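Over 8 alternatives, 61 of 70 values moved by less than 0.34 (the pooled SD between probe sets, log2) or, for counts, by no more than 1.5 times. Part of this stability was fixed beforehand. Dropping probe sets by the ending of their name changed nothing, because no member probe set has such an ending. Centring subtracted -0.33 from every log2 ratio, a shift smaller than the limit of 0.34. Averaging over probe sets could not move Runx3, Cbfb or Sp7, which have 1 measured probe set each. The count of members at least 2-fold higher, 2 as reported, was 4 after centring on the median gene, with quantile normalization and with scaling to the hybridisation controls, and 0 of 5 measured members with the floor at the 75th percentile, which by construction shrinks ratios of dim genes and leaves out Runx1 and Sp7. The count of members 2-fold lower was 0 throughout. With quantile normalization the log2 ratios of Runx1 and Runx3 were 1.13 and 2.95. That of Runx3 was 0.90 with the raised floor and 2.15 with log2(signal + 16), where that of Sp7 was 1.65. For these the cause beyond the alternatives' construction was not tested. No alternative gave a value for Runx2. No paired analysis was possible because each group has 1 array. Dim signals limit Runx3 and Sp7, whose Venus-negative signals lay near or below the floor, and 5 of the 6 Runx1 probe sets.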
